A study of Saccharomyces cerevisiae with 6 samples.

Results

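The 560 windows described here are the stretches of the yeast genome that gathered few reads or none in these libraries, and that have no deposited copy number ratio in pol2-REL. They were chosen by the measured G1 counts themselves: of the 12070 non-overlapping 1 kb windows on 16 chromosomes, a window was taken if it held 600 reads or fewer in the pol2-REL G1 library or in the wild-type G1 library. The 560 windows made up 4.64% of all windows and covered 559.4 kb of 12069 kb. Counts came from whole-genome sequencing of DNA copy number, in which a replicated window yields more reads than an unreplicated one and each S phase library is divided by the G1 library of its strain. The mutant strain was pol2-REL-3HA::KAN, in which the catalytic subunit of DNA polymerase epsilon, which copies the leading strand and takes part in replisome assembly, carried the substitutions R567C, E611K and L621F. The other was the wild type Pol2-3HA::KAN, with the same 3HA tag and KAN marker. Both strains were in the W303 background, arrested in G1 with alpha factor in YPD at 24 °C and released with pronase, and each gave a sample in G1, 30 min after release and 40 min after release. There was 1 library per condition and 1 listed strain per genotype, so no difference between strains had a replicate check and no test was run. Intervals of counts and folds cover counting error only, and are too narrow if duplicate reads or both reads of a pair were counted, which the sources used here leave unstated. Wilson intervals of shares treat windows as independent draws, which adjacent windows are not.

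A window can be empty in such data for reasons of the genome alone. Budding yeast carries several kinds of repeated DNA: Ty retrotransposons and the long terminal repeats they leave behind, the tandem rDNA units on chromosome XII that encode ribosomal RNA, the X and Y' elements and repeated gene families next to telomeres, and the silent mating type cassettes on chromosome III. A short read from a repeat has several equally good positions, and the authors left repetitive sequence out before reads were summed. The reads were placed on the S288c reference genome (SacCer2), whereas the cells were W303, a related laboratory strain that lacks some S288c sequence and carries its mobile elements at other places. Repeated DNA left out of the counts and DNA that both strains lack therefore both leave a window empty, and cannot be told apart from these counts. Positions below are those of the files, on SacCer2. No annotation or sequence of that build was used here, so the elements in each window are not named.

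The low-count windows held 57939 reads of 19156804 in the pol2-REL G1 library, 96722 of 29987832 at 30 min and 110287 of 32534281 at 40 min. In the wild type they held 97140 of 30741752 in G1, 124121 of 40161464 at 30 min and 100048 of 29468649 at 40 min. They thus took between 0.302% and 0.340% of the reads in every library. The number of windows without any read was 260, 254 and 248 in pol2-REL (G1, 30 and 40 min) and 246, 245 and 244 in the wild type. No window outside the 560 was at 0 in any library, which the rule itself fixed for the G1 libraries. In all 6 libraries 210 windows (37.5%) were at 0, and 298 had 10 reads or fewer in each library. A count of 0 allowed up to 3 reads, which over the 6 libraries together was 0.0199% of the reads in 6 median windows. Another 71 windows were at 0 in some libraries and not in others, and these never had more than 9 reads in a library.

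**Figure D1:**
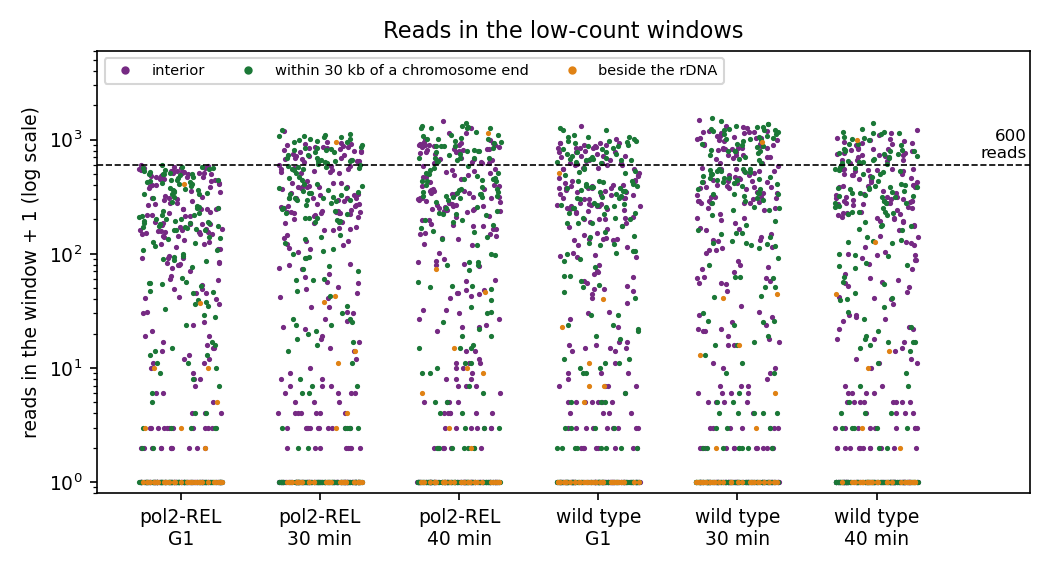
Reads in each of the 560 low-count windows (y axis, reads + 1 on a log scale) in the 6 libraries (x axis), with 1 point per window, coloured by place, and spread sideways at random. A band of windows at 0 (drawn at 1) stands in every library, between 244 and 260 windows, and a cloud reaches 600 reads (dashed line) in pol2-REL G1 and 1303 reads in wild-type G1.

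The remaining windows filled the range up to the limit. In pol2-REL G1, 58 windows had 1 to 10 reads, 70 had 11 to 100 and 172 had 101 to 600. In wild-type G1, 64 had 1 to 10 reads, 54 had 11 to 100, 129 had 101 to 600, and 67 had more than 600. The low counts therefore ranged from no reads at all to a part of the usual depth.

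Most of the windows were low in both strains. Of the 560, 493 (88.0%, 95% Wilson interval 85.1 to 90.5) were at or under the limit in both G1 libraries, 67 were so in pol2-REL alone and 0 in the wild type alone. The limit was a fixed number of reads while the libraries differed in depth: 600 reads was 36.6% of the median window in pol2-REL G1 (1638 reads) and 24.3% of the median window in wild-type G1 (2472 reads). In the 67 windows the counts were 285 at the lowest, 494 at the median and 600 at the highest in pol2-REL G1, against 602, 786 and 1303 in wild-type G1. Relative to the median window of the same chromosome in the same library, called relative depth here, these windows lay at 16.9%, 29.7% and 36.7% in pol2-REL G1 and at 17.2%, 30.4% and 42.5% in wild-type G1. The 2 ranges of relative depth thus overlapped almost throughout, while the ranges of reads did not overlap because the rule kept them apart.

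With a limit that follows depth, 25% of the chromosome median, 506 windows were low in pol2-REL G1 and 503 in wild-type G1, and 500 of these were low in both. This left 6 windows in pol2-REL alone and 3 in the wild type alone, all of them among the 560. All 9 lay between 19.1% and 31.2% of the median in both strains, close to that limit. The widest gap among the 9 was at XII 1071001 to 1072000, with 307, 779 and 1018 reads in pol2-REL (G1, 30 and 40 min) and 667, 1006 and 1398 reads in the wild type, or 19.1% and 31.0% of the chromosome median in G1. Windows at 0 in a single G1 library were likewise nearly empty in the other: 23 were at 0 in pol2-REL G1 and not in wild-type G1, with at most 6 wild-type reads, and 9 were at 0 in wild-type G1 alone, with at most 3 pol2-REL reads. No window was empty in a G1 library of one strain and well filled in that of the other.

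The limit itself cut through a continuous range of counts. In pol2-REL G1 the windows just inside it had 600 reads (IX 21001), 595 reads (XV 600001) and 591 reads (IV 1101001), and those just outside had 605 reads (VII 541001), 607 reads (VII 710001) and 613 reads (I 220001). In wild-type G1 the windows just inside had 596 reads (IV 982001), 568 reads (XVI 11001) and 567 reads (XV 704001). Just outside were II 226001 and IV 535001 with 602 reads each and X 202001 with 605 reads, and all 3 were among the 560 through their pol2-REL counts of 394, 482 and 448. All 12 counts had Poisson intervals that included 600, such as 552.9 to 650 for IX 21001 and 565.4 to 663.5 for I 220001.

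The rule used only the G1 libraries, so the S phase libraries could show whether the windows were low there too. Low in S phase was judged by 25% of the chromosome median, which is not the read limit of the rule. By that measure 506 of the 560 were low in pol2-REL G1, 503 in wild-type G1 and 500 in both. Of the 560, 489 (87.3%, Wilson interval 84.3 to 89.8) lay at 25% of the chromosome median or less in all 4 S phase libraries. Over all 12070 windows this share was 4.05%, and it came entirely from the 560, since none of the 11510 other windows was that low in any S phase library. The lowest relative depth of the other windows in S phase was 25.2%, and the highest of the low-count windows was 60.1%. Of the 71 low-count windows that were above 25% in some S phase library, 59 were low by the read limit in pol2-REL G1 alone and 12 in both strains. Since only 500 of the 560 were at 25% or less in both G1 libraries, the 71 do not count windows that rose in S phase. Across the 560 windows the Spearman correlation of relative depth in pol2-REL G1 with that in the other 5 libraries was between 0.972 and 0.979. This describes windows that share a reference and a mapping procedure, many of them at 0, and is no measure of replication.

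The deposited ratio tables followed the same line. For pol2-REL the ratio to G1 was listed for 11510 windows at 30 and at 40 min, with 0 of the 560 among them and no listed window under 605 G1 reads. For the wild type 11577 windows were listed at 30 min, including the 67 that were low in pol2-REL alone, and 11567 at 40 min, including 58 of them. A single window outside the 560 was missing from a list: VII 541001, with 872 wild-type G1 reads, was absent from the wild-type list at 40 min. No window in that list had under 604 reads at 40 min. Among the 67, III 12001 had 668 wild-type reads in G1 but 467 at 40 min, and so was not in it. That list thus followed the 40 min count as well as the G1 count. Wild-type ratios in the 67 windows had no pol2-REL counterpart.

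The low-count windows were concentrated at the chromosome ends. Within 30 kb of an end lay 246 of the 560 (43.9%, Wilson interval 39.9 to 48.1), whereas 7.95% of all windows lie there, and 25.6% of the end windows were low. By distance, 59.4% of the windows in the outermost 2 kb were low, 60.4% between 2 and 5 kb, 38.8% between 5 and 10 kb, 29.4% between 10 and 15 kb and 15% between 15 and 20 kb. Beyond 20 kb the share dropped to 4.38%, then 6.25% between 25 and 30 kb and 1.88% between 30 and 40 kb. Between 40 and 50 kb none of 320 windows was low, and further in the share was between 1.78% and 2.95%. These shares by distance leave out the 62 windows around the rDNA, of which 36 were low. Pooled over all ends, the band of low counts therefore thinned out about 20 kb from the ends. This is the part of the chromosome that in yeast holds the telomeric elements and subtelomeric gene families. At the right ends of I and VIII low windows reached further in, to about 30 kb. Separate low windows lay on the left side of II at 30001 to 33000 and 34001 to 35000, and on that of I at 26001 to 27000.

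**Figure D2:**
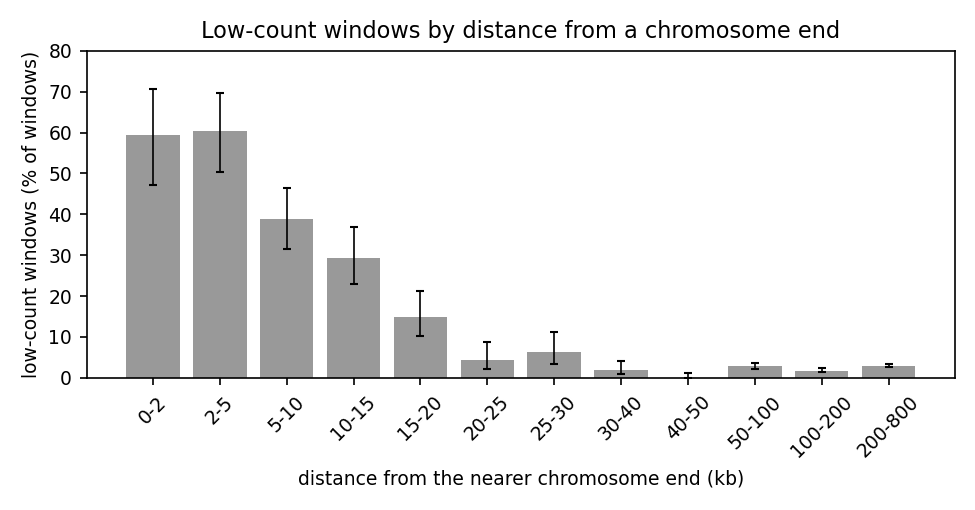
Share of windows that were low-count (y axis, % of windows) by distance from the nearer chromosome end (x axis, kb), with 95% Wilson intervals over windows. The share was 59.4% in the outermost 2 kb, 15% between 15 and 20 kb and at most 2.95% beyond 40 kb. The 62 windows around the rDNA, of which 36 were low, are left out.

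The ends differed from each other. At 18 of the 32 ends the outermost window was low, and 27 ends had a low window within 30 kb. The 5 ends without any were the right ends of VI and IX, both ends of XI and the left end of XV. The right end of I had 26 low windows within 30 kb, the right end of VIII had 22 and the left end of IX had 20, whereas the left end of I had 1 and that of VIII had 2. Chromosome XI was the only chromosome with 0 low windows, out of 666. Its lowest windows had 669 reads in pol2-REL G1 and 1074 reads in wild-type G1, or 40.6% and 40.9% of its medians. At the other extreme was I, the shortest chromosome, with 34 of 230 windows (14.8%).

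Chromosome I needs its own depth beside this share. Its median window was 108.1% of the library median in pol2-REL G1, 141.6% at 30 min and 142.9% at 40 min, and 175.5% in wild-type G1, 123.8% at 30 min and 129.8% at 40 min. The limit of 600 reads was thus 33.9% of the chromosome I median in pol2-REL G1 and 13.8% in wild-type G1. Of its 34 low windows 29 were still low in both strains and 5 in pol2-REL alone.

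The low-count windows formed 109 runs of adjacent windows. A single window made up 24 runs and a pair 13 runs, while 23 runs were longer than 6 windows and held 263 of the 560. Between these stood a group of runs of similar size: 16 runs of 5 windows and 20 runs of 6, which together held 200 windows. The median run was 5 windows long and the longest 28. None of the windows in runs of 1 window was at 0 in all 6 libraries.

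**Figure D3:**
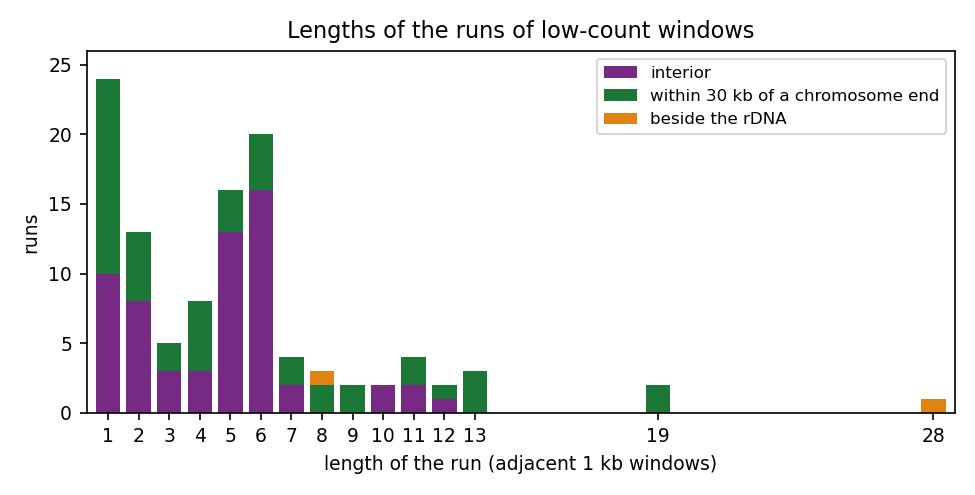
Number of runs (y axis) by length in adjacent 1 kb windows (x axis), stacked by place: interior, within 30 kb of a chromosome end and beside the rDNA. Runs of 5 and 6 windows form a peak made mostly of interior runs, 29 of 36, and the longest runs are beside the rDNA (28 windows) and at chromosome ends (19 windows).

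The longest run of all lay beside the rDNA. The 2 windows at XII 459001 to 461000 held the raised counts of the rDNA: at 459001 there were 19601, 63414 and 73187 reads in pol2-REL (G1, 30 and 40 min) and 34922, 57700 and 77965 in the wild type. At 460001 there were 54488, 179317 and 189886 reads in pol2-REL and 97266, 156448 and 206008 in the wild type. The rDNA is a tandem array of units longer than these windows, present in many copies in the cell and in few in the reference. Here it appeared as a spike over 2 windows with an empty stretch on either side, and how much of that stretch is itself rDNA was not looked up.

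To the left of the spike, 8 windows from 451001 to 459000 were low and 7 of them were at 0 in all 6 libraries. The outermost, 451001, had 411, 943 and 1140 reads in pol2-REL and 505, 960 and 988 in the wild type. To the right, 28 windows from 461001 to 489000 were low and 19 of them were at 0 in all 6 libraries. Summed over the whole 28 kb there were 63, 107 and 156 reads in pol2-REL and 87, 118 and 193 in the wild type. No window there had more than 125 reads, and that was the window touching the spike (461001: 36, 37 and 72 reads in pol2-REL and 39, 40 and 125 in the wild type). These 36 windows were 6.43% of the 560, all were low in both strains, and 26 of them were at 0 in all 6 libraries, the highest share of any place (72.2%, against 38.6% at ends and 32.0% in the interior). Reads returned just past them: 489001 had 708 reads in pol2-REL G1 and 826 in wild-type G1.

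**Figure D4:**
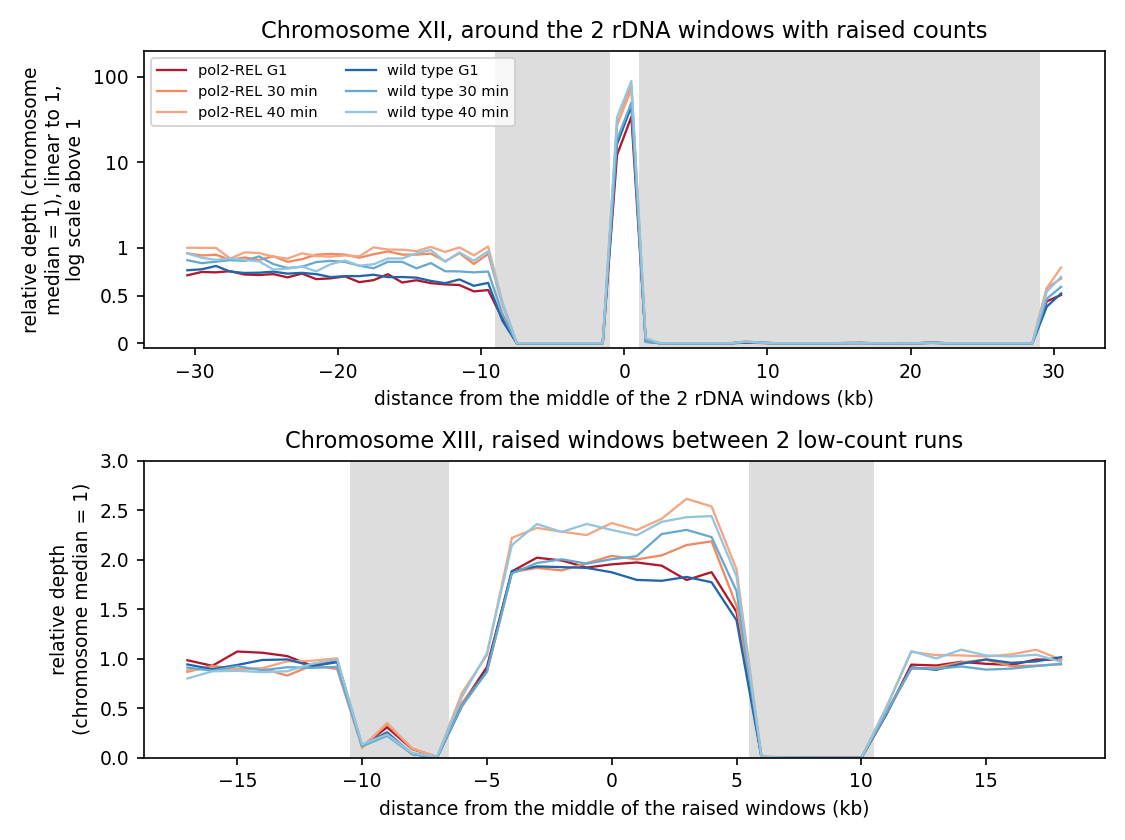
Relative depth (y axis, chromosome median = 1) in the 6 libraries against distance in kb, around the rDNA of chromosome XII (upper panel, linear to 1 and log above) and around the raised windows of chromosome XIII (lower panel, linear), with low-count windows shaded. All 6 libraries fall together at the edges of the shaded runs, and the chromosome XIII windows between its low-count runs average 1.93 in pol2-REL G1 and 1.86 in wild-type G1.

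Next in length came the left ends of IX and X, with 19 low windows each. On IX, from 1 to 19000, there were 379, 685 and 778 reads in pol2-REL and 576, 839 and 634 in the wild type, and 14 windows were at 0 in all 6 libraries. Nearly all of these reads came from 3 windows. The outermost had 115, 226 and 255 reads in pol2-REL and 184, 278 and 226 in the wild type. The window at 15001 had 89, 134 and 177 in pol2-REL and 121, 151 and 130 in the wild type, and that at 16001 had 173, 323 and 344 in pol2-REL and 267, 408 and 276 in the wild type. The left end of X kept reads in the corresponding windows. There, the outermost window had 38, 70 and 83 reads in pol2-REL and 143, 129 and 125 in the wild type. The window at 15001 had 107, 187 and 221 in pol2-REL and 185, 249 and 164 in the wild type, and 16001 had 163, 252 and 321 in pol2-REL and 302, 334 and 252 in the wild type. On X the windows at 8001 (184, 304 and 315 reads in pol2-REL and 313, 421 and 288 in the wild type) and 18001 also held reads, and 11 of its 19 windows were at 0 in all 6 libraries. The 2 ends were therefore alike in the place of 3 covered windows within a run of equal length, and whether they share sequence was not tested.

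The other runs of 13 windows were at ends as well. On I, 207001 to 220000, there were 1191, 2532 and 2477 reads in pol2-REL and 2844, 2726 and 2309 in the wild type. On XIV, 766001 to 779000, there were 126, 265 and 222 in pol2-REL and 292, 371 and 217 in the wild type, with 8 windows at 0 throughout. The left 13 kb of XVI had 1270, 2296 and 2657 reads in pol2-REL and 2118, 3029 and 2170 in the wild type. They differed in how empty they were: as a share of the reads expected at the chromosome median, G1 gave 0.591% in pol2-REL and 0.892% in the wild type on XIV, 5.18% and 5.04% on I, and 5.96% and 6.78% on XVI.

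In the interior, more than 30 kb from an end and away from the rDNA, lay 278 low windows (49.6% of the 560), although only 2.52% of the interior windows were low. Of the 109 runs 60 lay there, of which 42 had 3 windows or more and 29 had 5 or 6. The runs of 5 or 6 held 161 windows on 12 chromosomes, and 24 of the 29 included at least 1 window at 0 in all 6 libraries. Their reads were a few percent of what the chromosome medians would give: at the median run 5.75%, 5.54% and 5.71% in pol2-REL (G1, 30 and 40 min) and 5.44%, 5.16% and 5.89% in the wild type. Full-length Ty elements of yeast are of about this length.

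These runs had emptier middles than edges. Among the 58 outermost windows of the 29 runs, 8 were at 0 in all 6 libraries, and the median was 78 reads in pol2-REL G1 and 110 in wild-type G1. Among the 103 inner windows 51 were at 0 in all 6 libraries, and the median was 0 in every library. The 58 windows that flanked the runs were at 37.3% (lowest), 82.3% (median) and 147% (highest) of the chromosome median in pol2-REL G1 and at 34.6%, 81.1% and 139% in wild-type G1. A window that an edge cuts through holds a partial count, so these values do not measure how sharply coverage dropped. The places of the edges were fixed by the window grid and by the G1 limit itself.

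The named interior runs, taken by length, varied in the reads they kept. The longest, XVI 845001 to 857000 (12 windows), had 1270, 2039 and 2360 reads in pol2-REL and 2119, 2581 and 2165 in the wild type. VII 812001 to 823000 (11 windows) had only 173, 251 and 245 in pol2-REL and 242, 301 and 183 in the wild type, most of them from the window at 817001. X 473001 to 484000, also 11 windows, had 756, 1096 and 1204 in pol2-REL and 1293, 1540 and 1035 in the wild type. The run at IV 982001 to 992000 (10 windows) had covered windows inside it. Its windows at 986001 and 987001 had 576 and 499 reads in pol2-REL G1 and 847 and 775 in wild-type G1, in the midst of windows such as 985001 with 14 and 29, and 988001 with 1 in each strain. IV 528001 to 538000, of 10 windows too, had 954, 1213 and 1424 reads in pol2-REL and 1282, 1704 and 1397 in the wild type.

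Of the shorter runs named, II 259001 to 266000 was the emptiest. Its 7 windows had 11, 11 and 19 reads in pol2-REL and 15, 16 and 11 in the wild type, between 0.0623% and 0.101% of the expected reads. VIII 85001 to 92000, of 7 windows as well, had 777, 1026 and 985 in pol2-REL and 1203, 1338 and 1009 in the wild type. Among the runs of 6 windows, II 221001 to 227000 kept the most in G1, 1440 reads in pol2-REL G1 and 2293 in wild-type G1, or 14.7% and 15.5% of the expected reads, and had no window at 0 throughout. IV 872001 to 878000 was similar, with 1141 reads in pol2-REL G1 and 1698 in wild-type G1. I 160001 to 166000, III 85001 to 91000 and IV 645001 to 651000 had between 561 and 881 reads in pol2-REL G1 and between 753 and 2171 in wild-type G1. In each of these runs both strains kept similar shares of the expected reads.

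Chromosome III, which carries the mating type locus MAT and its silent copies HML and HMR, had 14 low windows. Near its left end 12001 had 392, 569 and 544 reads in pol2-REL and 668, 676 and 467 in the wild type, and 13001 had 182, 268 and 281 in pol2-REL and 263, 337 and 287 in the wild type. Further right 199001 had 181, 305 and 275 in pol2-REL and 393, 400 and 271 in the wild type, and 200001 had 39, 48 and 44 in pol2-REL and 66, 62 and 40 in the wild type. Further right still, III 294001 was not low, at 1.52 times the chromosome median in pol2-REL G1 and 1.46 in wild-type G1. It missed the limit for raised windows used below. The first window of the chromosome, III 1 to 1000, was raised by that limit, at 2.376 times the median in pol2-REL G1 and 2.365 in wild-type G1. The run at 149001 to 152000 began with a pair of windows at 0 in all 6 libraries. The last window of the chromosome is 617 bases long, and its 285 reads in pol2-REL G1 and 628 in wild-type G1 are counts over that shorter stretch. No annotation of MAT, HML and HMR in SacCer2 was looked up, so no window named here is assigned to them.

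Where it could be compared, relative depth in the low-count windows was similar in the strains. The G1 counts had chosen the windows, whereas the S phase counts had no part in the rule. A fold was computed where at least 1 of the 2 libraries had 100 reads, which held for 197 of the 560 windows in G1, 203 at 30 min and 199 at 40 min. The median log2 difference, pol2-REL minus wild type, was -0.08 in G1, 0.03 at 30 min and -0.05 at 40 min. Within 1.5-fold lay 189, 195 and 190 of these windows. At least 2-fold apart were 2 low-count windows in G1 (1 higher and 1 lower in pol2-REL), 3 at 30 min (all higher) and 1 at 40 min (lower). This last window was XII 461001, the one touching the rDNA spike. Over all windows the shares were 0.0171% in G1, 0.0256% at 30 min and 0.00854% at 40 min, and none of the 11510 other windows was that far apart at any time. The low-count windows had far fewer reads each, and the median size of the log2 difference in G1 was 0.16 for them and 0.07 for the others.

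**Figure D5:**
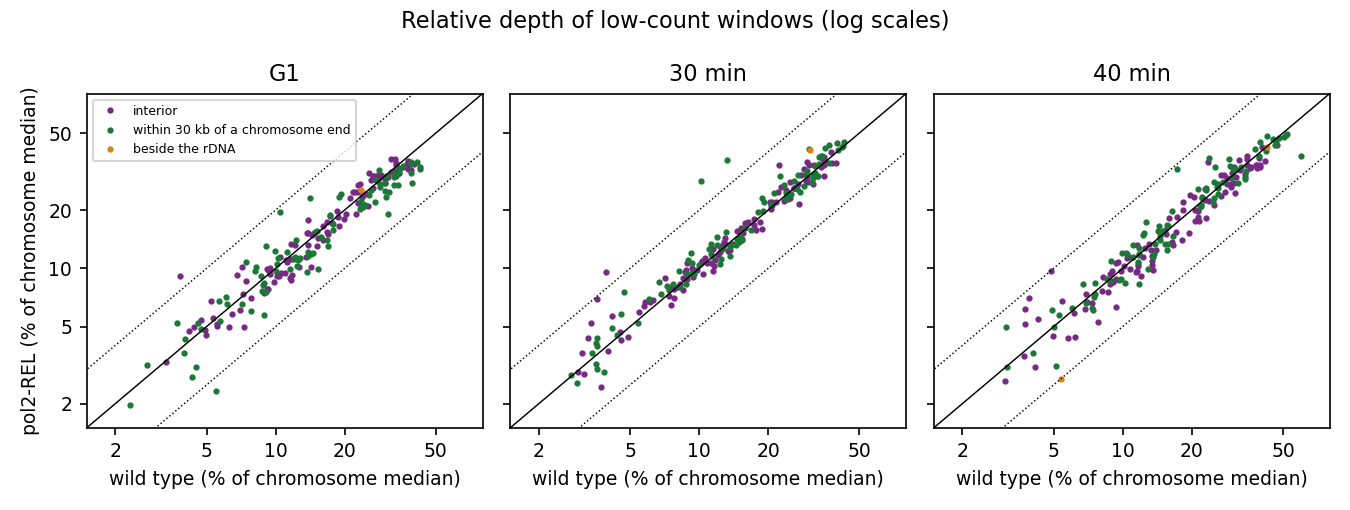
Relative depth (% of the chromosome median, log scales) of low-count windows in pol2-REL (y axis) and the wild type (x axis), with 1 panel each for G1, 30 min and 40 min and only windows with 100 reads in 1 of the 2 libraries. Between 189 and 195 windows lie within 1.5-fold of the solid line of equal depth, and 2, 3 and 1 windows lie at or beyond the dotted 2-fold lines.

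No window was 2-fold apart at all 3 times, and 3 low-count windows were 1.5-fold apart in the same direction throughout. How many of the other windows were 1.5-fold apart was not counted, so the 3 have no background beside them. XIII 359001 had 148, 229 and 242 reads in pol2-REL and 93, 129 and 114 in the wild type. Its relative depth was 2.37-fold higher in pol2-REL in G1 (counting interval 1.82 to 3.11), 2.43-fold at 30 min (1.95 to 3.04) and 1.97-fold at 40 min (1.57 to 2.49). The other 2 were neighbours near the right end of XII. There 1067001 had 314, 649 and 879 reads in pol2-REL and 225, 320 and 402 in the wild type, which gave 1.87-fold, 2.77-fold and 1.89-fold (G1, 30 and 40 min). Its neighbour 1066001 had 371, 838 and 1003 in pol2-REL and 304, 417 and 556 in the wild type, which gave 1.63-fold, 2.74-fold and 1.56-fold. All 3 windows had reads in both strains at every time. Whether a segment within them is present in a single strain was not tested.

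The largest difference downward was in the outermost window of X, whose relative depth in pol2-REL was 0.421 of that in the wild type in G1 (interval 0.286 to 0.606), 0.755 at 30 min (0.556 to 1.02) and 0.608 at 40 min (0.455 to 0.809). Against the windows within 25 kb in place of the chromosome median, the G1 difference was -1.06 for this window, 1.01 for XII 1067001 and 1.20 for XIII 359001 on the log2 scale. Of the other windows named for the size of a G1 difference with the same direction at all 3 times, XIV 774001 was at 0.644, VIII 539001 at 0.698, XII 944001 at 0.708 and IV 873001 at 0.766 of the wild-type level in G1. In S phase these 4 lay between 0.813 and 0.999. IX 15001 was at 1.40-fold in G1, 1.18-fold at 30 min and 1.24-fold at 40 min. XII 652001 was at 1.29-fold in G1 (interval 0.982 to 1.69), 1.93-fold at 30 min (1.51 to 2.48) and 1.64-fold at 40 min (1.26 to 2.15). Only 44 of the 194 windows that could be compared in each pair kept the same direction in all 3, so most did not. The same count over all windows was not made, so nothing is read from the 44 about a constant difference between the strains.

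Raised counts stood beside some of the low runs. By a rule set after the data were seen, 25 windows outside the rDNA had over 1.5 times the chromosome median in both G1 libraries. Of these 16 (64%) lay within 5 kb of a low-count window, as did 733 of the 11510 windows that were not low (6.37%). Adjacent raised windows are not independent, and 7 of the 16 belonged to a single stretch. In that stretch, on XIII, the 9 adjacent windows from 363001 to 372000 averaged 1.93, 2.01 and 2.37 times the chromosome median in pol2-REL and 1.86, 2.07 and 2.33 times in the wild type. They lay between the low runs at 357001 to 361000 and 373001 to 378000, and the run on the right had 26 reads in pol2-REL G1 and 16 in wild-type G1. On XII, 5001 to 6000 stood at 2.00 times the median in pol2-REL G1 and 2.41 in wild-type G1, again between low runs. On VIII, the 4 windows from 553001 to 557000 stood at 1.68 to 1.97 in pol2-REL G1 and 1.90 to 2.31 in wild-type G1. The rule asked for raised counts in both G1 libraries, so that the strains share these windows is part of the choice, and 9 of the 25 were not within 5 kb of a low-count window.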

How the data were processed

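DNA of 6 samples, 3 per strain, purified by CsCl centrifugation, was made into KAPA libraries and sequenced on a HiSeq. Per the labels and the paper, the authors used Cutadapt, BWA 0.7.8 and Picard 1.110, mapped to SacCer2, excluded repetitive sequence (how is not stated) and deposited read counts per 1 kb window without normalization (24133 windows that overlap by 50%). The authors also deposited ratio columns (S phase over G1 count, scaled and smoothed), used here only for which windows they list. All columns were mapped to a sample.

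From the counts, the 12070 windows that do not overlap were read with pandas 2.3.3 (Python 3.11.15), with SciPy 1.17.1 for Wilson and exact Poisson intervals (95%). Relative depth was the count over the median of the chromosome's windows with reads. Folds used exact binomial limits and at least 100 reads in 1 library. Adjacent low windows formed a run. A rDNA window was one over 5 times the median in G1, and low windows within 30 kb of it were put beside the rDNA. Windows named are the 5 longest runs (with ties), 12 interior runs by length, those beside the rDNA, 10 by G1 difference of constant direction, and 3 on each side of the limit. The others were named after their values were seen, namely the windows of chromosomes I, III and XI, the raised windows, and those that changed side under the depth-scaled limit. Members and lists were chosen with earlier results of these data known. In simulated counts of 12070 windows, 241 of 241 low windows and 40 of 40 differing windows were found. This shows only that the steps ran and recovered what was put in. It gives no error rate for the limit of 600 reads or for folds in low-count windows. The alternatives of limit, distance, fold and least reads are given in the closing section.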

Additional observations from a re-analysis of the deposited data

How the results depend on the processing

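Of 38 alternatives, 27 left a result within the set margin and 11 moved it. The margin was 1.5-fold for a count and the Wilson interval for a share. Among the 27, the windows low in pol2-REL G1 were the same 560 windows, so that alternative could not differ. The share of low windows low in both strains was 84.3% with a limit of 1000 reads, 96.5% with 25% of each library's median, 95.6% with the wild-type limit raised by the ratio of the medians and 98.2% with 25% of the chromosome median, against 88.0% with 600 reads. The share at ends was 28.2% within 10 kb, against 43.9% within 30 kb. The share low in all 4 S phase libraries was 99.3% with 50% of the median in place of 25%, and 97.6% of the 493 windows low in wild-type G1, a choice made after the data were seen, against 87.3%. The count of low windows 2-fold apart in G1, 2, became 8 at 1.5-fold, 0 at 4-fold, 0 with at least 300 reads in 1 library and 1 at 40 min. The 1.5-fold count was made in low-count windows only. Of the 2 in G1, 1 was higher and 1 lower in pol2-REL, and the 1 at 40 min was lower. With 1 library per condition no replicate could be left out. The strains were compared at matched times, and the 3 times are not replicates. Depth limits which windows can be compared: 363 of the 560 had too few reads for a fold in G1.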
